A study of Gossypium hirsutum with 8 samples.

Results

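The transcripts described here are 116 probe sets of the Affymetrix cotton array that rose strongly in flooded roots and to which the platform's probe table gives no single gene. They were chosen by the signals of the 4 root arrays: the lower flooded root array had to exceed the higher control root array by at least 3 log2 units. The search covered the 23280 probe sets with no single gene, out of 24029 tested, and 116 of them (0.498%) met it. For 115 of the 116 the table lists no gene at all, and for Ghi.9308.1.S1_at it lists several, so every transcript is called by its probe set ID and none is given a gene name or a function. Because the root signals chose the members, their root values are given as a description, without a test, and the tests below use the leaf arrays only.

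A probe set is a group of short oligonucleotides that together read 1 transcript, or several like ones. The plants were upland cotton (Gossypium hirsutum) of the cultivar Sicot 71, grown in soil in a glasshouse. In the flooded root group the roots had been under water for 4 h, and whole roots were taken. In the flooded leaf group the first leaf was taken from plants whose roots had been under water for 24 h. Each flooded group has its own control group of plants that were not flooded, and each of the 4 groups holds 2 arrays that the labels call biological replicates. Tissue and length of flooding change together, so the leaf differs from the root in both.

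Water around a root slows the supply of oxygen, and root cells short of oxygen make less ATP in their mitochondria. Plants are known to answer within hours by making transcripts for sugar breakdown, fermentation, ethylene signalling and protection against reactive oxygen. In Arabidopsis and rice, ethylene response factors of group VII direct much of this programme. The leaf stays in air, and what reaches it from a flooded root is a change in water, nutrients and hormones. Of the genes of this response that were looked up by name, AOX1, SusA1, Sus1, ERF7, ACS, ACO1 and Mn-SOD were found in the probe table, and the alcohol dehydrogenases, pyruvate decarboxylases, lactate dehydrogenase and haemoglobin looked up were not. Whether probe sets without a name read these enzymes was not tested.

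The signals were deposited on the log2 scale, with RMA named in the submitters' notes, so a difference of 1 is a 2-fold change. The arrays of a group correlated across probe sets at r = 0.991 in flooded root, 0.953 in control root, 0.994 in flooded leaf and 0.984 in control leaf. Control root replicate 2 stood apart from the other root arrays. Its 75th percentile over the tested probe sets was 8.08, against 8.47 to 8.53 on the others. The SD of its signals was 2.00, against 2.16 to 2.19. Its 52 reporter probe sets, which the manufacturer places on the array as controls, had a 95th percentile of 7.12, against 5.96 on control root replicate 1. Leaf and root arrays do not share a scale (the lowest signals were 3.99 to 4.10 in root and 2.49 to 2.65 in leaf), so the tissues are compared below only by the percentile of a probe set among the 24029 on its own array. RCA1, the rubisco activase of photosynthesis, fitted the tissue labels, at the 99.98th percentile in control leaf and the 38.4th in control root. The other leaf genes looked up (RCA2, RBCS, LHCB, CAB and PSBR) were not found in the probe table, so this check rests on 1 probe set. In whole tissues such as these, a change in the number of cells that carry a transcript and a change in its amount per cell cannot be told apart.

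In root, the 116 probe sets went from the middle of the range to its top. The median member stood at 6.84 in control root, the 58.2nd percentile, and at 11.49 in flooded root, the 96.4th percentile. Of the 116, 98 lay above the 90th percentile in flooded root and 71 above the 95th. The difference of the group means ran from 3.10 to 7.79 log2 units with a median of 4.20, an 18.4-fold rise, against a median of -0.02 over all tested probe sets. The gap between the nearest arrays of the groups was at least 6 in 8 members, at least 5 in 15 and at least 4 in 44, while 38 lay between 3 and 3.5. The same gap in the other direction was met by 22 probe sets with no single gene (0.0945%). The root values of the 116 are set by the choice of members, and neither they nor the count of 22 are read further.

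**Figure D1:**
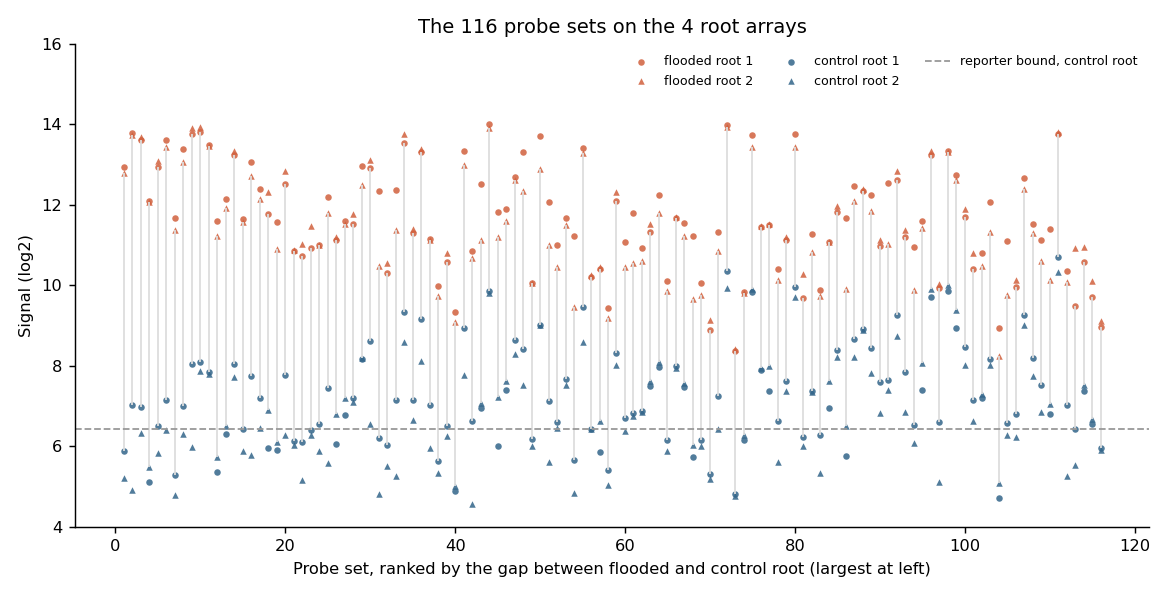
Signal (log2) of each of the 116 probe sets on the 2 flooded root arrays (orange) and the 2 control root arrays (blue), with probe sets ranked by the gap between the groups, drawn as a grey line. The flooded signals lie between 8.25 and 14.00, and control signals reach from 4.58 to 10.70 around the reporter bound (dashed, 6.43).

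The 3 widest gaps belonged to transcripts in the lower or middle range of control root and near the top in flooded root. GhiAffx.64116.1.S1_at read 5.88 and 5.22 on the control root arrays and 12.93 and 12.80 on the flooded ones, a 159-fold difference of the means (7.31 log2 units). GhiAffx.5828.1.S1_s_at read 7.04 and 4.92 without and 13.78 and 13.75 with flooding, and its control arrays lay further apart than those of any other member. Ghi.227.1.S1_at read 6.98 and 6.33 in control and 13.62 and 13.68 in flooded root, a 128-fold difference. In all 3 the flooded replicates lay within 0.2 log2 units of each other, and the wider spread was between the control arrays.

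The next members by gap had the same form. GraAffx.10900.2.A1_s_at rose from 5.31 ± 0.26 to 12.08 ± 0.01 (SD, n = 2 per group). GhiAffx.21780.1.A1_at went from 6.16 ± 0.47 to 13.02 ± 0.12 (SD, n = 2). GhiAffx.5523.1.S1_at went from 6.77 ± 0.53 to 13.52 ± 0.12 (SD, n = 2). All of these were 108-fold to 115-fold differences. GhiAffx.1589.19.S1_at started lower, at 5.05 ± 0.35, and reached 11.52 ± 0.21 (SD, n = 2). Ghi.820.1.S1_at and Ghi.7802.1.S1_x_at reached 13.23 and 13.84 from 6.64 and 7.02. GhiAffx.29105.1.S1_at and GhiAffx.24905.1.S1_s_at differed from those before them in starting higher, at 7.98 ± 0.15 and 7.83 ± 0.04, and rose 59.3-fold and 50.1-fold. Ghi.4471.1.A1_at, the last of the 12 widest, went from 5.55 to 11.42.

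The brightest members in control root were near the top of the array before flooding. Ghi.884.1.S1_at read 10.70 and 10.33 without and 13.77 and 13.81 with flooding. Ghi.7667.2.S1_s_at stood at 10.15 ± 0.29 and 13.95 ± 0.03, Ghi.10481.3.S1_s_at at 9.94 ± 0.10 and 13.33 ± 0.02, and Ghi.3182.1.S1_at at 9.87 ± 0.06 and 13.59 ± 0.22 (SD, n = 2 per group). These 4 transcripts were bright in both root groups, so their differences of 3.28 to 3.81 log2 units do not rest on a dim control. Whether the arrays read differences in full near the highest flooded root signal of a member (14.00) was not tested. The dimmest were GraAffx.4865.1.S1_s_at (4.79 ± 0.05 without and 8.39 ± 0.03 with flooding), Ghi.3229.2.A1_a_at (4.89 ± 0.27 and 8.60 ± 0.49), GhiAffx.5805.1.A1_at (4.95 ± 0.10 and 9.21 ± 0.17) and GhiAffx.1589.19.S1_at. A reporter bound was set at 6.43 in control root, the 95th percentile of the reporters' mean signals, and 43 of the 116 (37.1%) were dimmer, as were 54.3% of all tested probe sets. That count was 16 with control root replicate 1 alone, 70 with replicate 2 alone, and 96 against the reporter mean plus 2 SD (8.24). How many of the transcripts were absent before flooding is therefore not settled by these arrays, and the fold of a dim member is a lower limit if the dim signal is background.

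The members nearest the threshold were not set apart from the probe sets just outside it. GraAffx.30883.1.S1_at, Gra.2904.2.S1_s_at and Ghi.871.1.S1_s_at had gaps of 3.0, 3.02 and 3.06. Just outside lay GraAffx.22780.1.S1_s_at (2.99), GhiAffx.59002.1.S1_at (2.98) and Ghi.4646.1.A1_at (2.95). With a gap of 2.5 the set would hold 185 probe sets, and with 3.5 it would hold 78.

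Agreement between replicates was uneven. The median distance between the 2 arrays was 0.25 log2 units in flooded root and 0.38 in control root. Over all tested probe sets it was 0.14 and 0.39, so of the 2 root groups the members were less even than the rest in flooded root only. In leaf the median distance of the members was 0.18 in flooded and 0.30 in control leaf, against 0.15 and 0.23 over all. In flooded root 12 members (10.3%) lay over 1 log2 unit apart, and 11 of the 12 were higher on replicate 1. The widest was GhiAffx.41577.1.S1_s_at, at 12.34 and 10.48, followed by Ghi.10212.1.S1_x_at (11.22 and 9.47) and GhiAffx.7545.1.S1_at (11.67 and 9.92). The lean towards replicate 1 was shared by the array, since 231 of the 269 tested probe sets that far apart (1.12% of all) were higher there, and among known genes AOX1 read 11.35 and 10.24 and ERF7 10.15 and 9.16. Its part in the choice of members was not tested. In control root 16 members (13.8%) lay that far apart, about the 13.2% of all tested probe sets. Of the 16, 15 were higher on replicate 1, a stronger lean than the 1941 of 3178 over all.

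The rule was also put to the arrays of each number alone, to see how many more probe sets a single array of each group would have chosen. On the arrays numbered 1, 194 probe sets with no single gene differed by at least 3, with a median of 3.89. On the arrays numbered 2 the same 194 differed by a median of 3.66, and 133 of them (68.6%) by at least 3. The 116 members are among the 133, since the rule makes them pass on both. Chosen on the arrays numbered 2, 205 had a median of 3.81 there and 3.49 on those numbered 1, where 64.9% passed, the members again among them. Of the 194 and the 205, 2 and 1 did not rise at all on the other pair of arrays. These are the values the rule used, so the shares are a description of how far the choice rests on a single pair, and the numbers do not tie a flooded array to a control array.

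Known genes with the same gap give the scale of these rises. Of 697 probe sets with a single gene, 7 (1%) met the rule. They included AOX1, the alternative oxidase of mitochondria, at 6.96 and 6.97 in control and 11.35 and 10.24 in flooded root, and PAP1, at 5.82 and 5.37 in control and 9.03 and 9.10 in flooded root. The other 5 carry locus numbers only, with LOC107924007 (5.17 log2 units between the means) and LOC107937059 (5.16) the largest. The widest gap among the 7 was 4.80, and 15 of the 116 members had a gap of at least 5, values that the rule used and that carry no test. SusA1, a sucrose synthase, and ERF7, an ethylene response factor, missed the rule, with differences of the means of 3.53 (the larger of 2 probe sets) and 3.29. The other SusA1 probe set differed by 1.496. Not all of the genes looked up rose in flooded root. Sus1 differed by -0.076, and the probe sets of ACO1 by -0.573 and -1.21. Those of ACS differed by 2.003, 0.202, 0.063 and -0.096, and Mn-SOD is described below.

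Some of the 116 may be readings of one transcript. In the manufacturer's IDs the first number marks a cluster of sequences, and the 116 members carry 110 different ones. Ghi.3229 supplied 3 members, and Ghi.10481, Ghi.3542, Ghi.5852 and GhiAffx.1589 supplied 2 each. A shared number is no sure sign of a shared transcript: 65 probe sets carry GhiAffx.1589, with a median root difference of -0.03, and only 2 of them are members. In the other 15 clusters that also hold a probe set outside the 116, those 21 outside differed in root by -0.43 to 5.16. Their median was 1.01, against -0.02 over all tested probe sets. The largest, Ghi.3182.2.A1_at, met the gap and is outside because the table gives it a single gene.

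Among these neighbours are some with known genes. Ghi.3182.1.S1_at shares its cluster with Ghi.3182.2.A1_at, annotated as LOC107937059, which differed by 5.16 where the member differed by 3.72. Ghi.4090.2.S1_s_at, at 9.71 and 9.91 in control and 13.24 and 13.35 in flooded root, shares its cluster with Ghi.4090.1.S1_at, annotated as Mn-SOD, the manganese superoxide dismutase. That probe set read 5.98 and 6.44 in control and 7.53 and 7.86 in flooded root, a difference of 1.48 against 3.49 for the member. A second Mn-SOD probe set, Ghi.4230.1.S1_at, differed by 0.46. Of the unannotated rest of that cluster, Ghi.4090.4.A1_x_at was close to the member, at 10.34 and 9.33 in control and 12.79 and 12.96 in flooded root, a difference of 3.04. Ghi.4090.3.A1_at stayed dim, with a difference of -0.14. Both members of Ghi.3542 were alike, with differences of 5.65 and 5.24. Probe sets of one cluster were thus alike in some cases and unlike in others, and the annotation of one was not carried over to another.

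The letters S and A in an ID mark the direction of the sequence a probe set was designed from, and 7 members have a partner with the same numbers and the opposite letter. For Ghi.3642.2.A1_at (5.44 between the means), Ghi.10481.3.S1_s_at (3.39), Ghi.2645.1.S1_at (4.03) and Ghi.721.1.A1_s_at (3.72) the partner differed by 3.45, 2.67, 2.57 and 1.70. For Ghi.3888.1.S1_s_at (4.86) it differed by -0.09, for GhiAffx.28161.1.S1_s_at (4.57) by 0.49 and for Ghi.3196.2.A1_at (3.94) by 0.89. In these last 3 the rise was read by one direction and at most weakly by the other. By letter, 86 members (74.1%) carry S and 30 carry A, against 54.9% S among all 23280 probe sets searched. IDs starting GhiAffx made up 48.3% of the members and 27.1% of those searched, while Gra made up 3.45% of the members and 14.7% of those searched, and GraAffx 4.31% and 15.7%. The ending _s_at, which marks probes shared between like transcripts, was on 37.1% of the members and 38.4% of those searched, and _x_at, which marks probes that may bind unrelated ones, on 2.59% and 6.31%.

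In leaf, the 116 probe sets spread over the whole range of signals. The median member stood at the 51.6th percentile in control leaf and the 51.5th in flooded leaf, and single members reached from the 1.44th to the 99.8th in control leaf. By percentile, 41 members ranked higher in control leaf than in control root, and 3 ranked higher there than in flooded root. Against the reporter bounds of the leaf (5.60 in control and 5.45 in flooded), 53 of the 116 were under the bound in both groups, and 81 with the reporter mean plus 2 SD as the bound. Values this near the reporters are less sure as levels, although 2 members under the bound in both groups, GhiAffx.25253.1.S1_at and Ghi.10481.2.S1_s_at, were called lower.

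**Figure D2:**
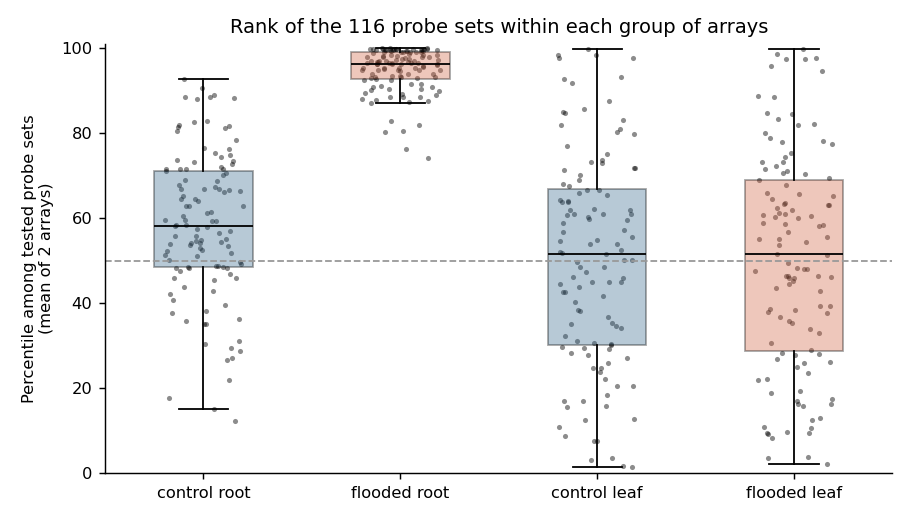
Percentile of the 116 probe sets among all tested probe sets on the same array (mean of 2 arrays, points) in the 4 groups, with boxes from the 25th to the 75th percentile of the members, a line at the median and whiskers to the last point within 1.5 box lengths; the dashed line is the 50th percentile. The members lie at a median of 96.4 in flooded root, where the rule put them high, against 58.2 in control root, 51.6 in control leaf and 51.5 in flooded leaf.

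A few transcripts that flooding raised in root were abundant in leaf with or without flooding. GhiAffx.5805.1.A1_at, dim in control root, read 13.86 and 13.97 in control leaf and 14.22 and 14.17 in flooded leaf, the 99.8th and 99.9th percentiles. Gra.2904.2.S1_s_at read 12.08 and 12.02 in control leaf and 12.44 and 12.46 in flooded leaf, and Gra.2751.1.S1_s_at 9.84 and 10.43 against 10.47 and 10.50. These are the 3 members with a higher percentile in control leaf than in flooded root, picked out after their values were seen. GhiAffx.5828.1.S1_s_at, the second widest gap in root, read 11.85 and 11.37 in control leaf and 11.61 and 11.79 in flooded leaf, so its leaf groups overlapped. In all, 8 members lay above the 90th percentile in control leaf. The widest and the third widest gap in root belonged to transcripts that were dim in leaf: GhiAffx.64116.1.S1_at read 3.81 and 4.01 in control leaf and 3.77 and 3.47 in flooded leaf, and Ghi.227.1.S1_at 3.71 and 3.80 against 4.07 and 3.70.

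In leaf most of the 116 changed little after flooding for 24 h, and a few rose or fell clearly. The median leaf change was -0.03 log2 units, against -0.04 over all tested probe sets, and 78 members changed by 0.5 or less. In 24 members both flooded leaf arrays lay above both control arrays, against 25.5% of all tested probe sets, and in 37 both lay below, against 31%. Among changes of at least 1 log2 unit without overlap, 9 members were higher (7.76%, against 3.36% of all probe sets) and 10 lower (8.62%, against 4.49%). In limma on the 4 leaf arrays, with Benjamini-Hochberg adjustment over all 24029 probe sets at 0.05, 6 of the 116 (5.17%) were called higher and 8 (6.9%) lower. The same fit called 4.27% of all probe sets higher and 4.49% lower. With all 8 arrays in the fit, which lets the root arrays into the variance, 6 members (5.17%) were called higher and 4 (3.45%) lower, beside 2.21% and 3.05% of all probe sets. Whether the members differ from the rest in these shares was not tested. Without flooded leaf replicate 1 or 2 limma called 0 members (10 higher and 10 or 13 lower at an unadjusted p under 0.05) and 0 probe sets in all (1663 or 1869 higher and 1592 or 1868 lower at that p). Without control leaf replicate 1 it called 12 members (10.3%) higher and 17 (14.7%) lower, beside 6.88% and 6.7% of all probe sets. Without control leaf replicate 2 it called 10 (8.62%) higher and 11 (9.48%) lower, beside 7.48% and 7.69%. A fit without 1 leaf array has a lone array in 1 group, which is assumed to vary like the pair in the other group, so these counts follow the spread of the pair that is left. The changes themselves moved less: without either flooded leaf array, that of Ghi.1639.1.S1_at was 2.70 and 2.47 and that of GhiAffx.8283.1.S1_s_at -2.38 and -2.86, beside 2.58 and -2.62 with all 4 leaf arrays.

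**Figure D3:**
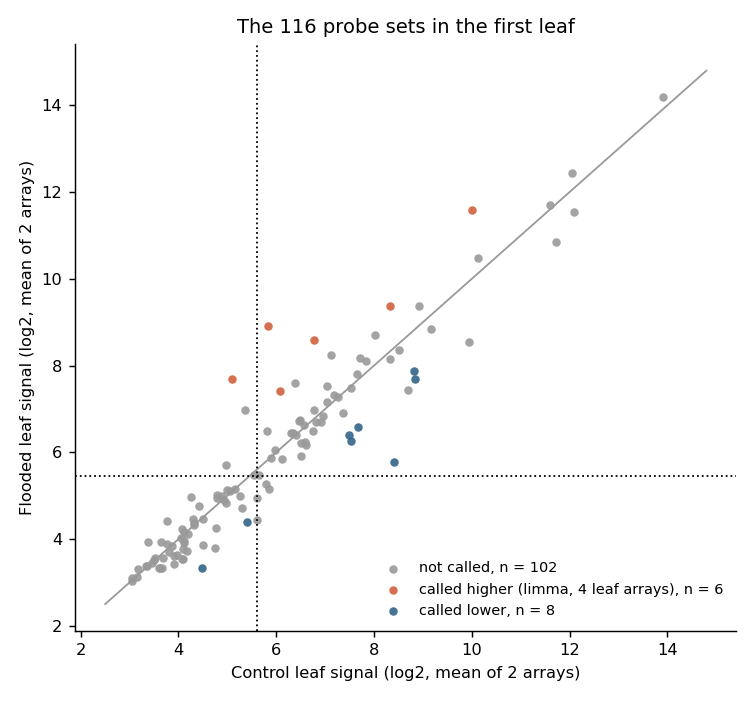
Mean signal (log2, 2 arrays per group) of the 116 probe sets in control leaf (horizontal) and flooded leaf (vertical), with the line of no change and dotted lines at the reporter bounds (5.60 and 5.45). Most points lie along the line; the 6 called higher by limma (orange) and the 8 called lower (blue) leave it by 0.94 to 3.09 log2 units.

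The transcripts that rose in the leaf as well were led by Ghi.8943.2.A1_s_at. It read 5.03 and 6.62 in control leaf and 8.45 and 9.38 in flooded leaf, 8.53-fold higher (limma adjusted p = 0.036; log2 change 3.09 with an SE of 0.57). Its root arrays read 6.58 and 6.29 without and 11.11 and 9.75 with flooding. It was the only member with a leaf change of at least 3 log2 units. The other probe sets of its cluster, Ghi.8943.1.A1_at and Ghi.8943.3.S1_at, changed by -0.09 and 0.21 in leaf. In root they differed by 0.79 and 0.91, where the member differed by 4.00. Ghi.1639.1.S1_at read 4.66 and 5.54 in control leaf, under the reporter bound, and 7.57 and 7.79 in flooded leaf (limma adjusted p = 0.017; log2 change 2.58 with an SE of 0.31). In both of these transcripts the flooded leaf arrays lay well clear of the control ones, by more than the distance between replicates.

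GhiAffx.47261.1.S1_s_at rose 3.53-fold in leaf (limma adjusted p = 0.016), with means of 6.77 ± 0.17 in control and 8.59 ± 0.31 in flooded leaf (SD, n = 2). GhiAffx.44664.1.S1_at was bright in every group: it read 9.97 and 10.05 in control leaf and 11.53 and 11.63 in flooded leaf (limma adjusted p = 0.016). Its root arrays read 9.87 and 9.81 without and 14.00 and 13.91 with flooding. Its replicates lay within about 0.1 log2 units of each other in every group, and its controls in the 2 tissues stood at the 88.4th percentile in root and the 92.8th in leaf. Ghi.1185.1.A1_at rose 2.53-fold (limma adjusted p = 0.017), with means of 6.07 ± 0.04 and 7.41 ± 0.17. Ghi.721.1.A1_s_at rose 2.07-fold (limma adjusted p = 0.023), with means of 8.33 ± 0.10 and 9.38 ± 0.13 (SD, n = 2). All 6 were also called with all 8 arrays in the fit. Ghi.8434.1.S1_at, the fourth largest leaf rise without overlap, read 5.50 and 5.24 in control and 6.47 and 7.49 in flooded leaf and was not called (log2 change 1.61, limma adjusted p = 0.0503).

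The largest fall in leaf was in GhiAffx.8283.1.S1_s_at. It read 8.31 and 8.51 in control leaf and 5.55 and 6.03 in flooded leaf, 6.16-fold lower (limma adjusted p = 0.015; log2 change -2.62 with an SE of 0.21). Its root arrays read 9.47 and 8.58 without and 13.43 and 13.28 with flooding. In leaf as in root its groups lay further apart than any of its replicates, in opposite directions, and the difference between the tissues was not tested. Ghi.10155.1.S1_at stood at 8.83 ± 0.20 in control and 7.68 ± 0.15 in flooded leaf (SD, n = 2), a fall with a limma adjusted p of 0.024. GhiAffx.25253.1.S1_at stood at 4.49 ± 0.06 and 3.33 ± 0.03 (SD, n = 2; adjusted p of 0.018 in limma), under the reporter bound in both leaf groups. Ghi.10481.3.S1_s_at and Ghi.10481.2.S1_s_at, of one cluster, fell by 1.11 and 1.01 log2 units (limma adjusted p = 0.042 for each). They may count the same transcript. Each lost its call without 1 control leaf array (limma adjusted p = 0.0585 without replicate 1 for Ghi.10481.3.S1_s_at, and 0.0545 without replicate 2 for Ghi.10481.2.S1_s_at).

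The remaining falls were not called once all 8 arrays entered the fit. GhiAffx.3815.1.A1_s_at read 7.66 and 7.68 in control leaf and 6.63 and 6.54 in flooded leaf (log2 change -1.09, limma adjusted p = 0.018, and 0.18 with all 8 arrays). GhiAffx.20947.1.S1_at changed by -1.27 (limma adjusted p = 0.041, and 0.18 with all 8 arrays or 0.0558 if control leaf replicate 2 is left out) and Ghi.6899.1.A1_at by -0.94 (limma adjusted p = 0.034, and 0.11). For Ghi.10481.2.S1_s_at the adjusted p was 0.052 with all 8 arrays. The flooded root arrays of GhiAffx.3815.1.A1_s_at (12.52 and 11.14) and GhiAffx.20947.1.S1_at (12.54 and 11.03) were among the 12 wide pairs, and they enter the spread of that fit.

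**Figure D4:**
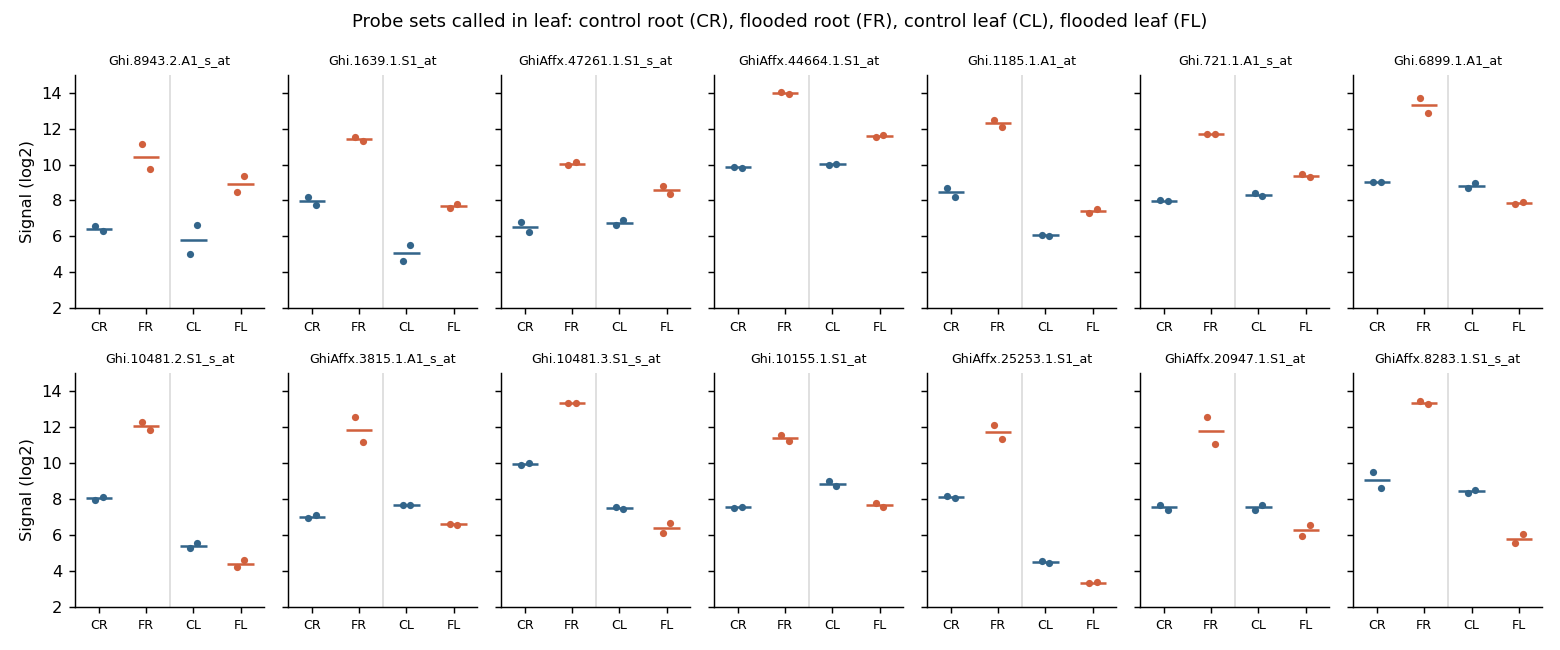
Signal (log2) on every array of the 14 probe sets called in leaf by limma on the 4 leaf arrays, ordered by leaf change from the largest rise to the largest fall; points are single arrays and bars are means of 2. All 14 are higher in flooded than in control root because of how they were chosen, while in leaf 6 are higher and 8 lower after flooding.

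Other large leaf falls without overlap were not called, and their control arrays lay far apart. Ghi.10292.1.S1_s_at read 9.23 and 10.68 in control leaf and 8.68 and 8.42 in flooded leaf (log2 change -1.40, limma adjusted p = 0.14). Ghi.9308.1.S1_at, the member with several genes in the table, read 8.16 and 9.22 in control leaf and 7.36 and 7.53 in flooded leaf (log2 change -1.25, limma adjusted p = 0.096), and its root arrays read 7.15 and 5.26 without and 12.38 and 11.39 with flooding. GhiAffx.54687.1.A1_at changed by -1.16 (limma adjusted p = 0.12). Without control leaf replicate 1, the lower control array of these 3, the changes were -2.12, -1.78 and -1.65. Without control leaf replicate 2 they were -0.68, -0.71 and -0.68. Each of these fits holds 1 control array and takes its spread from the flooded pair, so for these 3 only the changes are given. The size of these falls thus rests on which control array is taken. Over the 116, 14 (12.1%) had control leaf arrays more than 1 log2 unit apart, against 3.67% of all tested probe sets and 2 members in flooded leaf. The widest was GhiAffx.5523.1.S1_at, at 7.66 and 3.96 in control leaf and 5.95 and 7.04 in flooded leaf. Of the 14, 5 were higher on control leaf replicate 1 and 9 on replicate 2, so no one array was high throughout.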

How the data were processed

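The authors deposited 1 table of log2 signals per probe set for the 8 arrays, with 0 columns lacking a sample. The submitters' processing notes name RMA and limma without saying what for. Groups and replicate numbers came from the labels. Signals were used as deposited, unfiltered. The 103 probe sets whose IDs start with AFFX were left out, and the 52 reporter probe sets (RPTR) were kept in the tests but not among those searched. The probe table pairs 697 probe sets with 1 gene, all found among the RefSeq genes of Gossypium_hirsutum_v2.1, and 46 with several. Sequences of the probe sets were not used here.

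Leaf changes were tested in limma 3.58.1 (R 4.3.3) on the 4 leaf arrays, with 2 residual degrees of freedom, a prior of 3.50 and Benjamini-Hochberg adjustment over 24029 probe sets at 0.05. The root arrays stayed out because members were chosen on their values and spread. The fit was checked on simulated data. The labels do not say how plants were divided among arrays, so p-values speak for these arrays. An exact permutation test of 2 against 2 cannot go below p = 0.333 (two-sided). The number of arrays limits the precision.

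Members, the markers looked up and all rules were chosen with earlier results of these data known. Members named are the 12 widest gaps, the 3 just inside and outside the threshold, the 6 largest leaf rises and falls without overlap, up to 12 called in leaf, the 4 brightest and 4 dimmest in control root, the 3 widest flooded root pairs and any with several genes. The last of the 14 called, by p, and others noted in the text were named after their values were seen.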

Additional observations from a re-analysis of the deposited data

Results flagged for a closer look

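In 16 of the 42 probe sets named by rule, both flooded leaf arrays lay below both control leaf arrays, while in root both flooded arrays lay above both controls. Several of the 42 were named for a fall in leaf, so the share is set by the naming; it was 37 of the 116 members and 31% of all tested probe sets. The root direction was fixed by the choice of members, and the difference between the tissues was not tested. By size of the leaf change (log2) these were GhiAffx.8283.1.S1_s_at (-2.62), Ghi.10292.1.S1_s_at (-1.40), GhiAffx.20947.1.S1_at (-1.27), Ghi.9308.1.S1_at (-1.25), GhiAffx.54687.1.A1_at (-1.16), GhiAffx.25253.1.S1_at (-1.16), Ghi.10155.1.S1_at (-1.15), Ghi.10481.3.S1_s_at (-1.11), GhiAffx.3815.1.A1_s_at (-1.09), Ghi.10481.2.S1_s_at (-1.01) and Ghi.6899.1.A1_at (-0.94). Smaller differences were seen in GhiAffx.41577.1.S1_s_at (-0.31), GhiAffx.64116.1.S1_at (-0.29), GhiAffx.7545.1.S1_at (-0.26), GhiAffx.21780.1.A1_at (-0.21) and GraAffx.10900.2.A1_s_at (-0.17), none of them called by limma in leaf.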

How the results depend on the processing

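The number of members was 185 with a gap of 2.5 and 78 with 3.5, 129 to 176 without 1 root array (176 without control root replicate 1), and 194 and 205 on the arrays numbered 1 and 2 only, alternatives added after seeing the data. Quantile normalization over the root arrays gave 110, 107 of them members. The count under the reporter bound in control root was 96 with the mean plus 2 SD, 30 with the median of all probe sets, and 16 to 70 with 1 control array; in leaf it moved from 53 to 81. Without overlap in leaf, 24 and 37 became 9 and 10 at 1 log2 unit. Leaving out 1 leaf array gave 0 to 12 members called higher, 0 to 17 lower and 0 to 3646 of all probe sets, beside 6, 8 and 2106. With all 8 arrays 4 members were lower and 1262 probe sets called. The replicate numbers are not known to pair the arrays: deviations of the same number correlated at -0.19 in leaf and 0.04 in root. The replicate block gave 5 members higher, 5 lower and 924 probe sets, and the crossed replicate block 8, 10 and 3159. The trend, the robust prior and quantile normalization gave 6 to 7 higher and 7 to 8 lower, beside 1952 to 2081 of all probe sets. The filter on dim probe sets left 58 members and 11655 probe sets to test. It called 8 members (13.8%) higher and 6 (10.3%) lower, beside 1078 and 1069 of all probe sets left. The causes were not tested. Of the 18 named for leaf changes, 0 changed direction without 1 leaf array or with all 8 arrays. This was fixed in advance and is no check. The leaf groups of the 18 do not overlap, and the fit over all 8 arrays gives the same changes. GhiAffx.8283.1.S1_s_at, Ghi.10155.1.S1_at, Ghi.8943.2.A1_s_at, Ghi.1639.1.S1_at, GhiAffx.47261.1.S1_s_at, GhiAffx.44664.1.S1_at and Ghi.1185.1.A1_at were called under all 8 settings that kept the 4 leaf arrays. The rest of the 14 members called on the 4 leaf arrays were called under 4 (Ghi.10481.2.S1_s_at) to 7 of the 8. Ghi.8434.1.S1_at, which is not among the 14, was also called under 4.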
